A study of Asparagus officinalis with 3 samples.

Results

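The 9 sequences that the deposited miRNA table of *Asparagus officinalis* (garden asparagus, a dioecious crop) assigns to the miR159 or the miR319 family were examined, with the unigenes listed as their targets. The members were taken by the family column of each table, without regard to their values: 4 sequences of miR159 and 5 of miR319 among 194 listed miRNAs, and 30 of the 463 listed pairs of a miRNA with a unigene (an assembled transcript). The female and the male small RNA library were each made from equal amounts of RNA of leaves, roots, stems and flowers, pooled from 3-year-old plants of that sex grown in a greenhouse. There was 1 library per sex, so no value has a replicate and no test between the sexes was possible. A degradome library, made to catch cleaved transcripts, came from a pool of both sexes, and its reads were not analysed here. A miRNA table holds no marker of the 4 organs, so their shares in the pools were not checked.

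MiR159 and miR319 are old and related families of land plants, with nearly the same mature sequence. MiR159 is best known for guiding the cleavage of transcripts of GAMYB-like factors, MYB proteins that act downstream of gibberellin in seeds and in anthers, where they serve the tapetum and pollen. MiR319 is best known for doing the same to a class of TCP factors, which restrain cell proliferation in leaves and petals. A plant miRNA pairs over almost its whole length with its target, which is then cut opposite the middle of the miRNA.

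The mature sequences are printed since the families differ in few letters, and since those letters set the pairing described later. They run 5′ to 3′, and the capitals mark the seed, taken as bases 2 to 8.
aof-miR159a: uUUGGAUUgaagggagcucua
aof-miR159a-1: uUUGGAUUgaagggagcucu
aof-miR159b: uUUGGAUUgaagggagcucug
aof-miR159c: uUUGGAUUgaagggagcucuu
aof-miR319e: uUUGGACUgaagggagcuccu
aof-miR319b: cUUGGACUgaagggagcuccc
aof-miR319a: uUGGACUGaagggagcuccc
aof-miR319c: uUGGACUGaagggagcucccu
aof-miR319d: uGGACUGAagggagcucccuc

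All 4 miR159 sequences shared the seed UUGGAUU, and the 5 miR319 sequences fell under 3 seeds. Aof-miR319e and aof-miR319b had UUGGACU, aof-miR319a and aof-miR319c had UGGACUG, and aof-miR319d had GGACUGA. None of the other listed miRNAs had any of these 4 seeds. The 3 miR319 seeds came from shifts of the 5′ end: aof-miR319b, aof-miR319a, aof-miR319c and aof-miR319d all lie on a single run of 23 nt, cuuggacugaagggagcucccuc. On it aof-miR319b starts at base 1, aof-miR319a and aof-miR319c start at base 2, and aof-miR319d starts at base 3. Aof-miR319e does not lie on that run and differs from aof-miR319b by C1U and C21U, with positions counted from 1 at the 5′ end and the base of the sequence named first given first.

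Within miR159, aof-miR159a-1 is aof-miR159a without its last base, and the other members differ from aof-miR159a only in that base, by A21G in aof-miR159b and by A21U in aof-miR159c. The closest pair across the families was aof-miR159c and aof-miR319e, which differ by U7C and U20C. Both of these substitutions separate every miR159 from every miR319 sequence once the starts are aligned. All but aof-miR319b of the 9 members begin with U. The 4 members on the shared miR319 run contain gggagcuccc, 10 nt that are their own reverse complement, and in aof-miR319c and aof-miR319d the stretch extends to 12 nt. In aof-miR319e the longest such stretch was 8 nt, and in the miR159 sequences it was the 6 nt of gagcuc. Of all 194 listed miRNAs, these 4 miR319 members (2.06%) were the only ones with a stretch of this kind of 10 nt or longer.

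The sequencing values are RPM, the read number of each sequence scaled to the size of its library, which the study calls TPM, and they are not divided by length. The low values rose in even steps, 0.229 TPM (female) and 0.157 TPM (male), which 99.4% and 98.8% of the values up to 60 TPM followed within 0.0051 TPM. If a step is a read, the values were scaled to about 4373600 female and 6374675 male reads. For each library this lies above the final clean reads and below the clean reads that the study reports, so the total used for scaling is not known. The libraries as wholes were shifted a little, as the median female to male ratio of all listed miRNAs was 1.13, or 0.18 on the log2 scale.

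Aof-miR159a made up most of the miRNA of both families. Its female value was 1317 TPM and its male value 1128 TPM, the eighth highest value of all 194 miRNAs in each. Its female to male ratio was 1.17. The 20-nt form aof-miR159a-1 had a female value of 29.95 TPM and a male value of 31.1 TPM, which is 2.27% and 2.75% of the 21-nt form. Thus the full-length and the shortened form kept nearly the same proportion in both sexes.

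**Figure D1:**
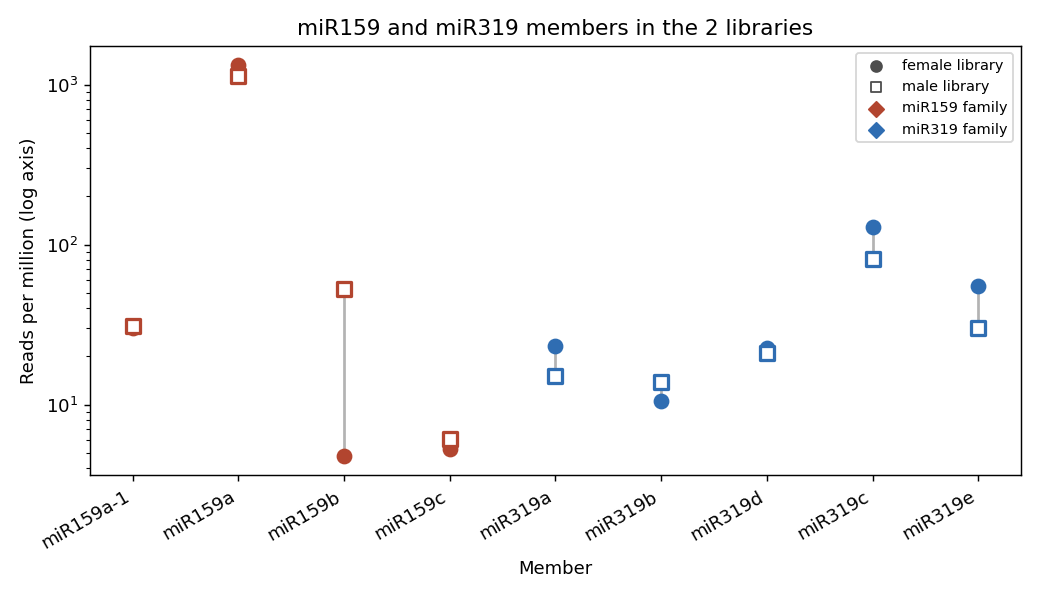
Value of each of the 9 members in the female library (filled circles) and the male library (open squares), in RPM on a log axis, with miR159 in red and miR319 in blue and 1 library per sex. Aof-miR159b lies at 4.80 TPM (female) and 52.9 TPM (male), while the other 8 members lie within 2-fold of each other between the sexes.

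Aof-miR159b, with G as its last base, was the member that stood apart. Its female value, 4.80 TPM, was the lowest of the 9 members, and its male value, 52.9 TPM, was the third highest of them. The male value was 11.01-fold higher, and if a step is a read it rests on 337 reads against 21. The other last-base form, aof-miR159c, had 5.26 TPM (female) and 6.12 TPM (male), 1.16-fold higher in the male. So the forms ending in G and in U had near-equal female values, and the male values differed.

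Set against aof-miR159a in the same library, which removes any difference in scaling between the libraries, aof-miR159b was 0.364% in the female and 4.68% in the male library, a 12.9-fold higher share in the male. Aof-miR159c was 0.399% and 0.542% of aof-miR159a. Among the 21-nt forms, aof-miR159a held 99.2% of the female and 95.0% of the male sum. To see whether last-base forms in general were more frequent in the male library, listed miRNAs of the same length that differ only in the last base were compared in the same way, each with the form that has the largest sum over both libraries. There were 15 of them. In aof-miR168e and aof-miR167c the female value, and in aof-miR166f-2 and aof-miR827d the male value, was above that of the form compared with. Of the 15, 2, aof-miR159b and aof-miR827d, had a share over 2-fold higher in males, and 1, aof-miR168e, had a share over 2-fold higher in females. The male over female quotient of the share ran from 0.179 to 2.31 in the 13 forms outside miR159, so that of aof-miR159b lay above them all. A sequence was listed if it reached the study's minimum in either library. The female value of aof-miR159b lies below that minimum, so it was listed through its male value alone. Aof-miR168e, aof-miR396b-4 and aof-miR827b, among others, were also listed through a single library, and this filter favours uneven shares. Whether aof-miR159b comes from a gene of its own or from a changed end of aof-miR159a was not tested.

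**Figure D2:**
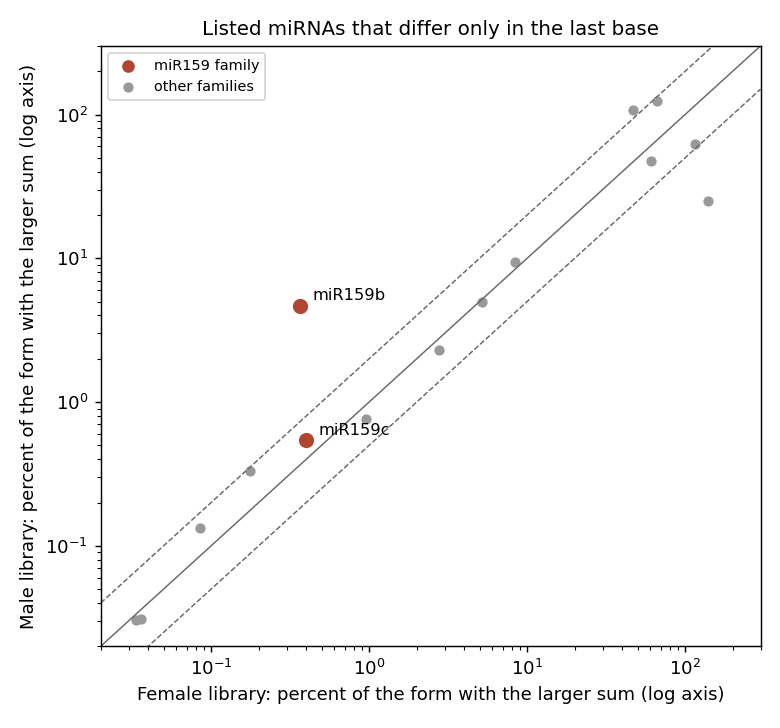
The 15 listed miRNAs that differ only in the last base from a listed miRNA with a larger sum over both libraries, each as a percentage of that miRNA (over 100 where it is the higher of the pair in that library) in the female library (x axis) and in the male library (y axis), both on log axes. The solid line marks equal shares and the dashed lines a 2-fold difference; aof-miR159b lies at 0.364% and 4.68%, and aof-miR159c at 0.399% and 0.542%.

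In the miR319 family the most abundant member was aof-miR319c, with a female value of 128 TPM, a male value of 81.6 TPM and a female to male ratio of 1.57. Aof-miR319a, which is aof-miR319c without its last base, had 23.3 and 15.1 TPM and a ratio of 1.55. It made up 18.2% of aof-miR319c in the female and 18.5% in the male library. As in miR159, the form shorter by 1 base kept its proportion between the sexes.

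The forms on the run that start elsewhere had ratios nearer to 1 but changed more as a share of aof-miR319c. Aof-miR319b, which starts 1 base earlier, had female and male values of 10.5 and 13.8 TPM, and was the miR319 member with a higher male value, 1.31-fold. It was 8.20% of aof-miR319c in the female and 16.9% in the male library. Aof-miR319d, which starts 1 base later than aof-miR319c, had 22.6 and 21.2 TPM and a ratio of 1.07. Its share of aof-miR319c was 17.7% in the female and 26.0% in the male library. By seed, UGGACUG made up 63.3% of the miR319 sum in the female and 59.8% in the male library, and GGACUGA made up 9.45% and 13.1%. UUGGACU, the seed of aof-miR319b and aof-miR319e, made up 27.3% and 27.1%.

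Aof-miR319e, the member with the most miR159-like sequence, had female and male values of 54.9 and 29.96 TPM. Its ratio of 1.83 was the highest female excess of the 9 members. If a step is a read, 240 female and 191 male reads lie behind these values. In the female library aof-miR319e was the third most abundant member, and in the male library it was the fifth, behind aof-miR159b and aof-miR159a-1. As there are no replicate libraries, no spread is known for members that are neighbours in this order, such as aof-miR159a-1 and aof-miR319e in the male library.

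Of the 9 members, 1 was over 2-fold apart between the sexes, against 30.9% of all listed miRNAs (60 of 194). That member was higher in the male library, as were 12.9% of all listed miRNAs, and none was over 2-fold higher in females, as were 18.0% of all. The female value was the higher one for 5 of the 9 members and for 57.7% of all listed miRNAs. The median log2 ratio of the members was 0.10, beside 0.18 over all listed miRNAs with a ratio. It was -0.14 over the miR159 members and 0.63 over the miR319 members. A difference between pooled organs of the sexes cannot tell fewer cells that hold a miRNA from less of it per cell.

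**Figure D3:**
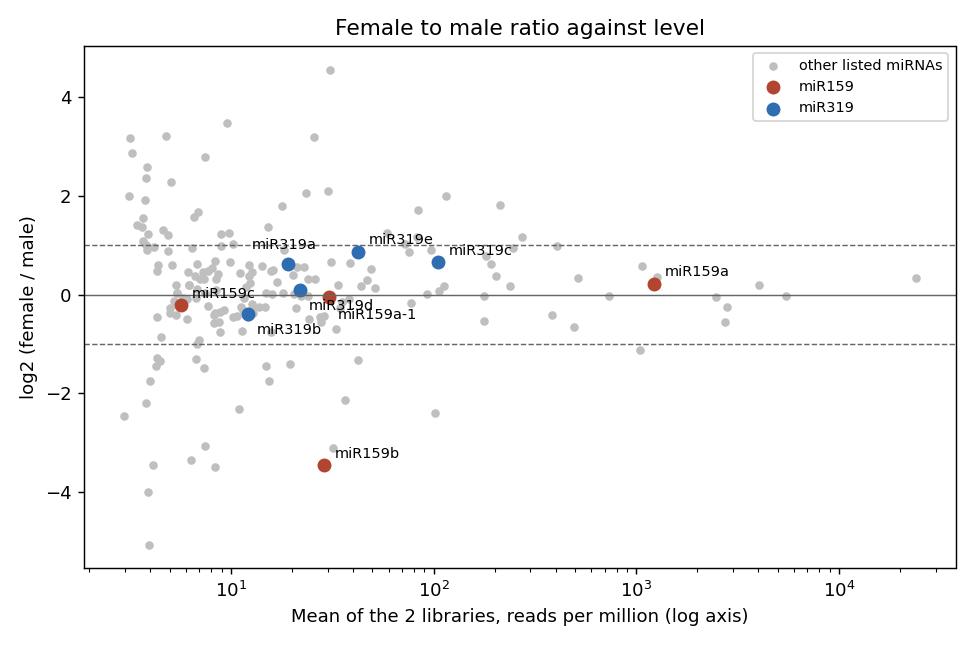
Log2 of the female over the male value (y axis) against the mean of both libraries in RPM (x axis, log) for the listed miRNAs with a ratio, in grey, with miR159 in red and miR319 in blue. The dashed lines mark a 2-fold difference; aof-miR159b lies at -3.46 and the other 8 members lie between the dashed lines.

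Summed over its members, miR159 reached 1357 TPM (female) and 1218 TPM (male), a ratio of 1.11 or 0.16 on the log2 scale. The sum follows aof-miR159a, which held 97.0% of it in the female and 92.6% in the male library. Without aof-miR159a the remaining 3 members summed to 40.01 TPM (female) and 90.04 TPM (male), a log2 ratio of -1.17. When the values were rescaled by the median ratio of all listed miRNAs, the log2 ratio of the full miR159 sum was -0.02, so its direction depends on the scaling.

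MiR319 summed to 240 TPM (female) and 162 TPM (male), a ratio of 1.48 or 0.57 on the log2 scale. The ratio stayed above 1 without aof-miR319c (0.48 on the log2 scale) and after rescaling by the median ratio (0.39). In the female library miR159 had 5.66 times the miR319 sum, and in the male library 7.54 times. Both families lay far below the largest in the table: among the summed values of 26 conserved families, miR159 took place 7 in the female and 6 in the male library, and miR319 took places 11 and 13.

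The target table lists pairs of a miRNA and a unigene with a score that rises with every mispaired base. For all 382 pairs without gaps in the table, all 30 pairs of the members included, the score equalled the number of mismatches plus 0.5 for each G-U pair. The highest score listed was 3 and the lowest 0.5. MiR159 had 18 pairs with 8 unigenes and miR319 had 12 pairs with 7 unigenes, 12 unigenes in all. Every member had at least 1 pair, from 1 for aof-miR319b and aof-miR319c to 7 for aof-miR159a-1. Bases 10 and 11 of the miRNA, where plant miRNAs direct cleavage, were paired in all 30 pairs, as in 90.8% of the ungapped pairs of the whole table.

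No unigene of either family was described as a MYB factor, a TCP factor, an auxin response factor, a gibberellin or DELLA protein, LEAFY or a translation initiation factor. Over the 194 unigenes of the whole table, the count was also 0 for each of these descriptions except auxin response factors, which had 5, none of them listed for these families. The descriptions come from the best database hit of each unigene, and 4 of the 12 unigenes had none, beside 43.3% of the unigenes of the whole table. No listed pair was thus described as a classical target of either family. Whether such transcripts are among the assembled unigenes was not tested.

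Most of the listed pairs lay on the minus strand of the unigene, that is on the complement of the sequence as assembled. This held for 23 of the 30 pairs (76.7%), 12 of 18 for miR159 and 11 of 12 for miR319, beside 41.3% of all 463 pairs. The share counts near-identical members at one site separately, as 16 of the 23 pairs lay on only 3 unigenes. Counted by unigene, 8 of the 12 had minus-strand sites, and the same share over all listed unigenes was not taken. In the plus orientation the members had 4 unigenes, 3 for miR159 and 1 for miR319. As the unigenes were assembled from expressed sequence tags and transcriptome reads, the orientation of each as assembled need not be that of the transcript.

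Both families shared 3 unigenes, UN31941, UN42740 and UN38339, which are 37.5% of the unigenes of miR159 and 42.9% of those of miR319. They held 16 of the 30 pairs, all on the minus strand. The letters of their plus strand at the sites, printed 5′ to 3′ since they can be read beside the members, were as follows. The capital marks the letter of UN38339 that differs from aof-miR319b.
UN31941, bases 223 to 243: uuuggauugaagggagcucua
UN42740, bases 47 to 67: cuuggacugaagggagcuccc
UN38339, bases 145 to 167: cuuggGcugaagggagcucccaa

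The plus strand of UN31941 at this place is aof-miR159a letter for letter, and that of UN42740 is aof-miR319b letter for letter. The first 21 letters of the UN38339 stretch differ from aof-miR319b by A6G alone. The minus-strand site of UN31941 and that of UN42740 are therefore each the complement of a stretch that reads as a member of the families. The stretch of UN38339 reads as no member. UN31941 and UN42740 had no database hit, and UN38339 was described as an ectonucleotide pyrophosphatase/phosphodiesterase, an enzyme class that splits nucleotides outside the cell. Whether these unigenes are transcripts of the miRNA genes was not tested, as their full sequences were not used here.

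The same letters show which pairs the table leaves out. Aof-miR159a and aof-miR159a-1 would pair with the UN31941 site without any mismatch or G-U pair, and aof-miR319b and aof-miR319a would do so with the UN42740 site. None of these 4 pairs is listed, and no pair in the whole table has a score of 0. Their near relatives are listed: aof-miR159b on UN31941 with a score of 0.5 from a single G-U pair at base 21, and aof-miR159c with a score of 1 from a mismatch at base 21. On UN42740 aof-miR319e is listed with a score of 1 from G-U pairs at bases 1 and 21.

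**Figure D4:**
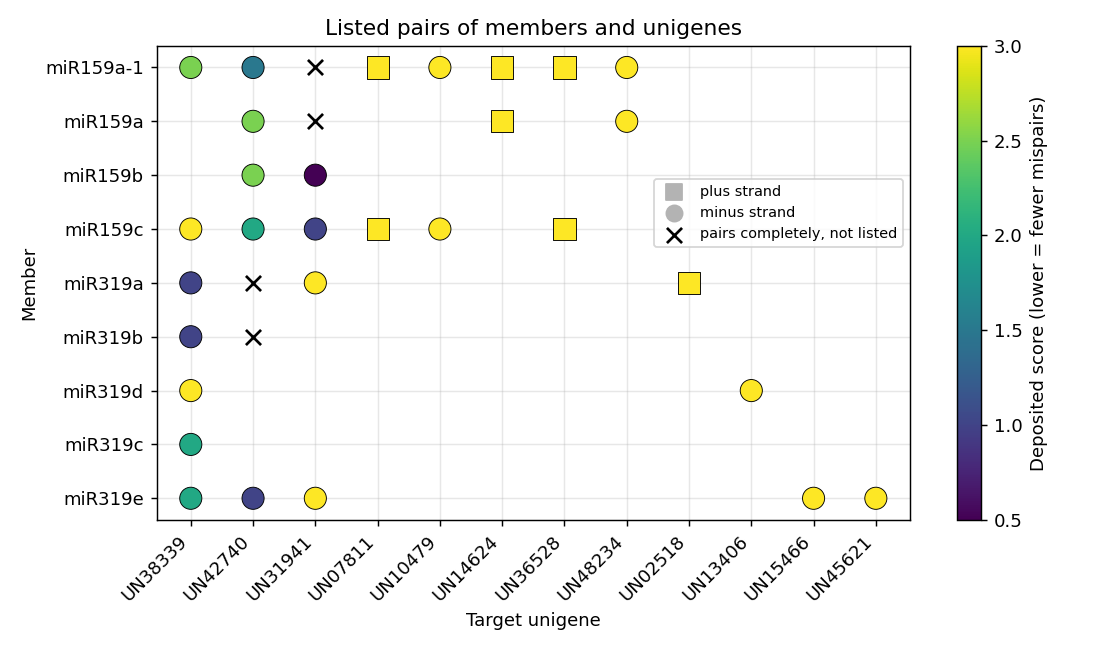
Listed pairs of the 9 members (rows) with the 12 unigenes (columns), coloured by the deposited score from 0.5 to 3, with squares for plus-strand and circles for minus-strand sites. Crosses mark the 4 pairs without any mispaired base that are not listed; the 3 columns at the left are the unigenes shared by both families and hold 16 of the 30 pairs.

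The substitutions that separate the families acted unequally on the shared sites. On UN42740, which is complementary to miR319, the miR159 letters U7 and U20 formed G-U pairs. Base 1 also formed a G-U pair, and base 21 of the 21-nt forms a mismatch or a G-U pair. With all of these the 4 miR159 members had scores of 1.5 to 2.5. On UN31941, which is complementary to miR159, the miR319 letters at the same places formed mismatches. Aof-miR319a and aof-miR319e each had a score of 3 from 3 mismatches, that at their last base included. Aof-miR319b has 4 mismatches there, a score of 4 by the same rule, and is not listed. All 4 miR159 members were thus listed for the site complementary to miR319, while 2 of the 5 miR319 members were listed for the site complementary to miR159. For aof-miR319c and aof-miR319d the letters needed at that site were not all known.

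UN38339 was the most shared unigene and was listed for 7 of the 9 members. All 5 miR319 members were listed for it, aof-miR319a and aof-miR319b with a score of 1, aof-miR319c and aof-miR319e with 2, and aof-miR319d with 3. Of miR159, aof-miR159a-1 had 2.5 and aof-miR159c had 3. Aof-miR159a and aof-miR159b are not listed, and the site letters give each of them 3.5, just above the highest score in the table. The miR159 form without the last base and the form ending in U were thus listed for this unigene, and those ending in A and in G were not.

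The unigenes with plus-strand sites, printed 5′ to 3′ with mismatched letters in capitals, all had a score of 3.
UN14624 with aof-miR159a: uggagACccuuucaauccaaa
UN36528 with aof-miR159c: aaCUgcucccuuAaauccaaa
UN07811 with aof-miR159a-1: agaAcuucAuuuaauccaaa
UN02518 with aof-miR319a: gUgagcucucuucaguAcag

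UN14624 was described as similar to an aldehyde dehydrogenase of family 2, enzymes that oxidise aldehydes to acids. It was the only plus-strand unigene listed for aof-miR159a, at bases 318 to 338, with mismatches at bases 15 and 16 of the miRNA. All bases of the miR159 seed pair with it, as they do with UN36528 and UN07811. UN36528 had no database hit and UN07811 was described as an uncharacterized protein, and both were listed for aof-miR159a-1 and aof-miR159c but not for aof-miR159a or aof-miR159b. UN02518, the only plus-strand unigene of miR319, was described as a putative calcium/calmodulin-dependent protein kinase, and its mismatch at base 4 falls within the seed of aof-miR319a.

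The remaining 5 unigenes had minus-strand sites for a single family, each with a score of 3. Those of miR159 were UN48234, described as similar to an extended synaptotagmin, a protein that ties membranes together, and UN10479, an alpha-soluble NSF attachment protein, which takes part in vesicle fusion. Those of miR319 were UN13406, a pentatricopeptide repeat protein, a class that binds organelle RNA, UN45621, which had no hit, and UN15466. UN15466 was described as a transport inhibitor response protein, a receptor of auxin, and was listed for aof-miR319e at bases 604 to 624 of the minus strand. It was the only unigene of the members also listed for another family: aof-miR393a and aof-miR393b were listed for its plus strand at bases 272 to 292, with scores of 2.5 and 2. The sites of miR319 and miR393 on it therefore lie on opposite strands.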

How the data were processed

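Small RNA libraries of 1 female and 1 male pool were sequenced by the authors on the Illumina platform. The authors trimmed adapters, dropped reads that were short, of low quality or from structural RNAs, and assigned sequences to families by similarity to known miRNAs with bowtie. The deposited RPM values (TPM in the words of the authors) give read numbers scaled to library size, and sequences below a minimum in both libraries were left out. The deposited scores belong to alignments with unigenes. The authors name psRNATarget for target prediction, but the table names no program.

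Female to male ratios were taken with no pseudocount, and a member over 2-fold apart was counted. Values were summed by family and by seed. Site letters were taken from the deposited alignments, complemented and compared with the members, and pairs were scored with 1 for a mismatch and 0.5 for a G-U pair. Steps between low values were searched up to 60 TPM. Too few values lay within the first steps to rebuild reads, so no count test was run and no interval is given. Depth limits the lowest members most.

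The genes named are all 9 members, every unigene shared by both families, those described as MYB, TCP, auxin response factor or translation initiation factor 2, and the lowest-scoring unigene of each member. The other unigenes were named after their values were seen, as their number was small. The members and lists were chosen with earlier results of these data known. Alternatives were added TPM, a minimum of 10 TPM, 2 rescalings, other folds, sums without the most abundant member, and stricter scores or a single strand. The 2-fold call and the pairing of bases were tested on simulated data, and the search for steps between low values was not. Python 3.11.15 with numpy 2.4.6 and matplotlib 3.10.9 was used.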

Additional observations from a re-analysis of the deposited data

How the results depend on the processing

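Aof-miR159b was the 1 member over 2-fold apart with 1 or 5 TPM added, under both rescalings, with a minimum of 10 TPM and at a 3-fold threshold. At 1.5-fold the count was 4. Its log2 ratio of -3.46 became -2.56 with 5 TPM added. The log2 ratio of the miR159 sum, 0.16, was -1.17 without aof-miR159a, -0.02 when rescaled by the median ratio and -0.0036 when rescaled by the summed values, and 0.21 without aof-miR159b, an alternative chosen after seeing the data. That of aof-miR319d, 0.10, was -0.08 and -0.06 under the rescalings. The miR319 sum kept a positive log2 ratio under each alternative, from 0.10 for the seed GGACUGA to 0.65 for the seed UGGACUG. The lower end is no sum, as aof-miR319d alone has the seed GGACUGA, and its ratio turned negative under the rescalings. Restricting the pairs to a score of at most 2.5 left 3 unigenes for miR159 and 2 for miR319, of which 2 were shared. At a score of at most 2 the counts were 2, 2 and 1, and with the plus strand only 3, 1 and 0. Adding the 4 complete pairs, also chosen after seeing the data, gave 34 pairs and the same unigenes. No paired analysis was possible because each sex had 1 library. Without replicate libraries, no difference between the sexes could be set against the spread between plants or library preparations. The study also measured aof-miR159a by qRT-PCR in male and female flower buds with biological replicates. It reports a higher level in males at the early stage. Those buds are other samples than the pooled organs, and their values were not analysed here.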

Other observations

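Sites whose complement reads as a listed miRNA were not limited to the members. Over all listed targets, 20 pairs on 12 unigenes had such a site, of which 7 pairs on 2 unigenes belonged to miR159 and miR319. On UN02447 and UN07692 (miR156), UN21911 (miR160), UN29932 (miR164), UN12134 (miR168) and UN31171 (miR171) the site lay on the minus strand, so the plus strand as assembled reads as the miRNA. On UN01411 and UN13110 (miR156) and UN42854 (a candidate miRNA) it lay on the plus strand, which is then the complement of the miRNA, and UN31232 had sites of candidate miRNAs on both strands.

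UN00815, annotated in the study as a subunit of eukaryotic translation initiation factor 2, a protein that brings the initiator tRNA to the ribosome, has no pair in the deposited target table. The study names it as a putative target of miR159 from its degradome, a source other than the deposited scores and not analysed here. Its sequence of 1124 nt was aligned without gaps to the 9 members on both strands by the rule of the deposited scores. The lowest penalty was 6.5 on the plus strand and 7 on the minus strand, above the highest listed score of 3. On the plus strand aof-miR159a-1, aof-miR319a, aof-miR319c and aof-miR319d each had 6.5, so the lowest penalty did not separate the families. For aof-miR159a the best plus-strand site lay at bases 134 to 154 with a penalty of 7.5, printed 5′ to 3′ with mismatched letters in capitals.
UN00815 with aof-miR159a: GCUUAcAcccuucgauccaaC
Within it 13 bases in a row paired, bases 10 and 11 of the miRNA among them, if the 1 G-U pair of the site is counted as paired. For the miR319 members the longest paired run at the same place, counted likewise, was 7 bases, as the C that U7C gives them faces an A there. The site was the best of all places on the unigene, and how often a run of this length arises elsewhere was not tested.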
